A study of Saccharomyces cerevisiae with 8 samples.

Results

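The arginine synthesis genes of Saccharomyces cerevisiae described here were ARG2, ARG5,6, ARG8, ARG7, ORT1, CPA1, ARG3, ARG1 and ARG4. Each was taken as the probe whose systematic name on the array is the open reading frame of that gene. All 9 had a probe, of 6227 yeast genes with one, and all 9 were measured well above background on every array, so that none was lost to the filter on dim probes, which left 5816 genes to test. The cells were BY4743, a diploid laboratory strain that carries deletions in several nutrient synthesis genes in both groups. Cultures of 120 ml in the rich medium YPD were shaken at 130 rpm and 30 °C, and RNA was taken after 3 h without isopropanol (the control, 4 arrays) or with isopropanol at 40 g/l (4 arrays). A description of the treated samples gives the dose in mg/l, whereas the other labels give 40 g/l. A culture at 20 g/l was not analysed here.

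Yeast makes arginine from glutamate. In the mitochondrion glutamate is acetylated, phosphorylated, reduced and given an amino group, and the acetyl group is then handed back to a new glutamate, which frees ornithine. Ornithine leaves for the cytosol, where it is joined with carbamoyl phosphate to citrulline, then with aspartate to argininosuccinate, which is split into arginine and fumarate. In yeast several genes of the pathway are known to be held down by arginine through the ArgR/Mcm1 complex. The pathway is also known to be driven by Gcn4 when amino acids run short.

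The control arrays shared 1 slide and the isopropanol arrays another. Slide and treatment therefore cannot be told apart in any difference given below. The labels do not tie arrays to separate cultures. The p-values therefore set a difference between the groups only against the spread of arrays within a group, which may be technical variation. The 75th percentile of the processed intensity was 1568 ± 172 (SD, n = 4) on control arrays and 2260 ± 306 on isopropanol arrays. Between 92.3% and 95.9% of spots stood above background, and 0 were saturated. Values are given below as log2 signal relative to that percentile of the same array, which for a single gene can be compared between arrays but not with the level of another gene. Against 6 spike-in probes the percentile itself rose by 1.15 (log2), or by 0.75 without isopropanol replicate 1, whose spike-ins were at -2.61 against -1.11 to -0.88 on the other isopropanol arrays. The arrays read bulk RNA, in which more cells of a kind and more RNA per cell cannot be told apart. On the scale used, the median change of all 5816 genes was 0.11. URA3 and LEU2, which BY4743 lacks, were not well above background on both spots of any array. Of 8 mating genes that mark haploid cells, 7 could be tested. Of these 5 were higher, against 48.1% of all genes, and MF(ALPHA)1 was lower (log2 -2.45, SE 0.11). Their median was 0.64, which turned to -0.55 with normexp on local backgrounds. Quantile normalization called 3 higher and 2 lower (median 0.12), beside 2074 and 2225 of all genes. Normexp on an array-wide background also called 3 and 2 (median 0.14), beside 2296 and 1751. MFA2 was not well above background on any array. The summed signal of the 8 ran from 0.413 to 0.430 of the 75th percentile on control arrays and from 0.464 to 0.509 on isopropanol arrays. Its part in the results below was not tested.

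With isopropanol all 9 arginine synthesis genes rose by limma at an adjusted p under 0.05, against 48.1% of all genes tested, and none fell, against 29.7%. Of the 9 genes 5 rose at least 2-fold, against 7.5% of all genes. In each of the 9, every isopropanol array lay above every control array, as in 45.9% of all genes. The changes ran from 1.18-fold for ARG2 to 9.56-fold for ARG3, with a median of 1.36 (log2). The genes for the cytosolic steps (CPA1, ARG3, ARG1, ARG4) changed by 1.36 to 3.26 (median 2.51), and those for the mitochondrial steps and export (ARG2, ARG5,6, ARG8, ARG7, ORT1) by 0.24 to 1.43 (median 0.57). These ranges overlapped, ARG5,6 rising more than CPA1, and the difference between cytosolic and mitochondrial genes was not tested. All 9 were also called higher with control replicate 3, which was scanned apart, and isopropanol replicate 1 left out together. With quantile normalization, median centring or the normexp background correction with local backgrounds 8 of 9 were called higher, ARG2 being the exception, and none was lower under any setting tried.

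**Figure D1:**
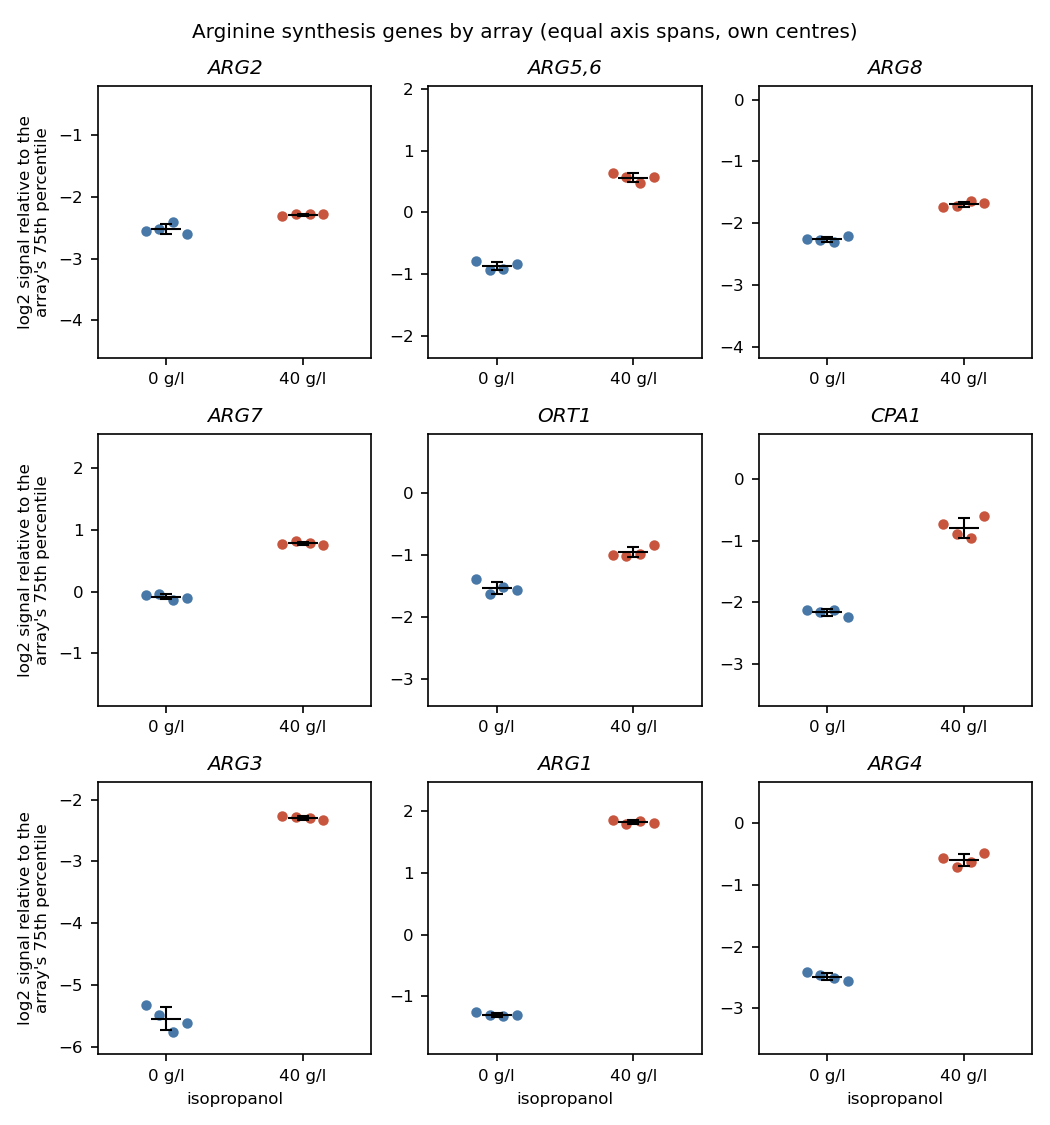
Each panel plots the log2 signal of a gene relative to the 75th percentile of the same array, for the 4 control (0 g/l) and the 4 isopropanol (40 g/l) arrays, with bars at the mean ± SD, equal axis spans and centres set to each gene. The groups stand apart in every panel, by the least in ARG2 (a change of 0.24) and by the most in ARG3 (3.26).

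ARG2 (YJL071W, chromosome X) encodes acetylglutamate synthase, which opens the pathway and is inhibited by arginine. It read -2.54, -2.52, -2.41 and -2.60 on control replicates 1 to 4 and -2.31, -2.27, -2.28 and -2.28 on isopropanol replicates 1 to 4. The groups did not overlap, and control replicate 3 was the nearest to the isopropanol arrays. ARG2 was higher by 0.24 (log2, SE 0.05, limma adjusted p = 0.000878), a 1.18-fold difference that ranked 2313 among the increases of 5816 genes. The call was lost and the change was 0.08 with median centring (adjusted p = 0.160), and the sign turned to -0.024 with quantile normalization (adjusted p = 0.649) and to -0.0041 with normexp (adjusted p = 0.985). Of the 9 genes it was the only one whose call depended on the scaling.

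ARG5,6 (YER069W, chromosome V) encodes a precursor that is cut into acetylglutamate kinase and acetylglutamyl-phosphate reductase, the enzymes that follow. It read -0.79, -0.93, -0.92 and -0.84 on control replicates and 0.63, 0.57, 0.47 and 0.58 on isopropanol replicates. The groups were far apart and the arrays within each close together. The rise was 2.70-fold (log2 1.43, SE 0.05, limma adjusted p = 3.29e-09), the highest of the mitochondrial steps. ARG8 (YOL140W, chromosome XV) encodes acetylornithine aminotransferase, which adds the amino group. Its control values were -2.26, -2.27, -2.30 and -2.21 and its isopropanol values -1.74, -1.72, -1.65 and -1.68. Those groups did not overlap, and the step up was smaller, at 1.48-fold (log2 0.57, SE 0.04, limma adjusted p = 4.87e-07).

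ARG7 (YMR062C, chromosome XIII) encodes ornithine acetyltransferase, which moves the acetyl group from acetylornithine back to glutamate and so closes the cycle. On control replicates it read -0.06, -0.03, -0.13 and -0.10, and on isopropanol replicates 0.77, 0.82, 0.79 and 0.75. All isopropanol arrays were high and close together, with no overlap. The rise was 1.82-fold (log2 0.86, SE 0.04, limma adjusted p = 1.97e-08). ORT1 (YOR130C, chromosome XV) encodes the inner membrane carrier that exports ornithine to the cytosol. It read -1.39, -1.62, -1.52 and -1.57 on control replicates and -0.99, -1.01, -0.99 and -0.84 on isopropanol replicates, of which replicate 4 was the highest. The groups did not overlap, and the rise was 1.48-fold (log2 0.57, SE 0.06, limma adjusted p = 9.44e-06), the same size as that of ARG8.

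CPA1 (YOR303W, chromosome XV) encodes the small subunit of the arginine-specific carbamoyl phosphate synthetase, which takes nitrogen from glutamine. Its transcript is known to carry a leader peptide through which arginine represses it. It read -2.12, -2.16, -2.12 and -2.24 on control replicates and -0.73, -0.90, -0.95 and -0.60 on isopropanol replicates. The control arrays were close together and the isopropanol arrays spread the widest of the 9 genes (SD 0.16), with replicates 4 and 1 high and 3 low, still far above the controls. CPA1 rose 2.57-fold (log2 1.36, SE 0.07, limma adjusted p = 7.4e-08).

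ARG3 (YJL088W, chromosome X) encodes ornithine carbamoyltransferase, the enzyme that makes citrulline from ornithine and carbamoyl phosphate. It read -5.32, -5.49, -5.76 and -5.62 on control replicates and -2.26, -2.28, -2.30 and -2.33 on isopropanol replicates. The controls were low and scattered (SD 0.19), the isopropanol arrays high and tight (SD 0.03). The rise was 9.56-fold (log2 3.26, SE 0.08, limma adjusted p = 4.4e-10), rank 12 of 5816 genes and the largest of the pathway on this scale. In processed intensity units ARG3 went from 41.9, 36.2, 30.5 and 26.8 on the control replicates to 502, 504, 486 and 358 on the isopropanol replicates. The control values were dim but stood above the lowest signal that was well above background, which lay between 9.31 and 14.1 on those arrays. The size of the ARG3 change differed with the background correction and with the offset of 50 units added to it. With normexp on the median signal and this offset it was 1.25 (log2, adjusted p = 0.0266), and without the offset 1.82. With an array-wide background in place of local ones it was 1.91 with the offset and 2.90 without. With quantile normalization it was 2.83, and it passed under every setting tried. Normexp with local backgrounds and no offset read ARG3 at 345 units on control replicate 2. There the spot median minus local background was 37.75. On control replicates 1, 3 and 4 normexp gave 56.3, 86.2 and 38.5 units, against 44, 35.75 and 32.25 by subtraction.

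ARG1 (YOL058W, chromosome XV) encodes argininosuccinate synthetase, which joins citrulline with aspartate. It read -1.25, -1.30, -1.32 and -1.31 on control replicates and 1.86, 1.80, 1.84 and 1.81 on isopropanol replicates. The arrays of each group lay close together (SD 0.03 in both), and the groups were far apart. The rise was 8.71-fold (log2 3.12, SE 0.04, limma adjusted p = 7.27e-12), rank 16 of 5816. In processed intensity it went from 640 ± 74.8 to 8029 ± 1143 units (SD, n = 4), and over all settings tried the change stayed between 2.96 and 4.27 (log2). ARG4 (YHR018C, chromosome VIII) encodes argininosuccinate lyase, which releases arginine. It read -2.42, -2.46, -2.51 and -2.55 on control replicates and -0.57, -0.71, -0.62 and -0.48 on isopropanol replicates. There was no overlap, and the rise was 3.71-fold (log2 1.89, SE 0.06, limma adjusted p = 1.18e-09), rank 94.

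The genes did not share an array that was high throughout. Among the isopropanol arrays replicate 1 was the highest for 3 of the 9 genes, replicate 2 for 2, replicate 3 for 1 and replicate 4 for 3, these being ARG4, CPA1 and ORT1. The 16 spot readings of each gene (2 spots on 8 arrays) held no flagged spot. The 9 genes lie on 5 chromosomes, 4 of them on chromosome XV.

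**Figure D2:**
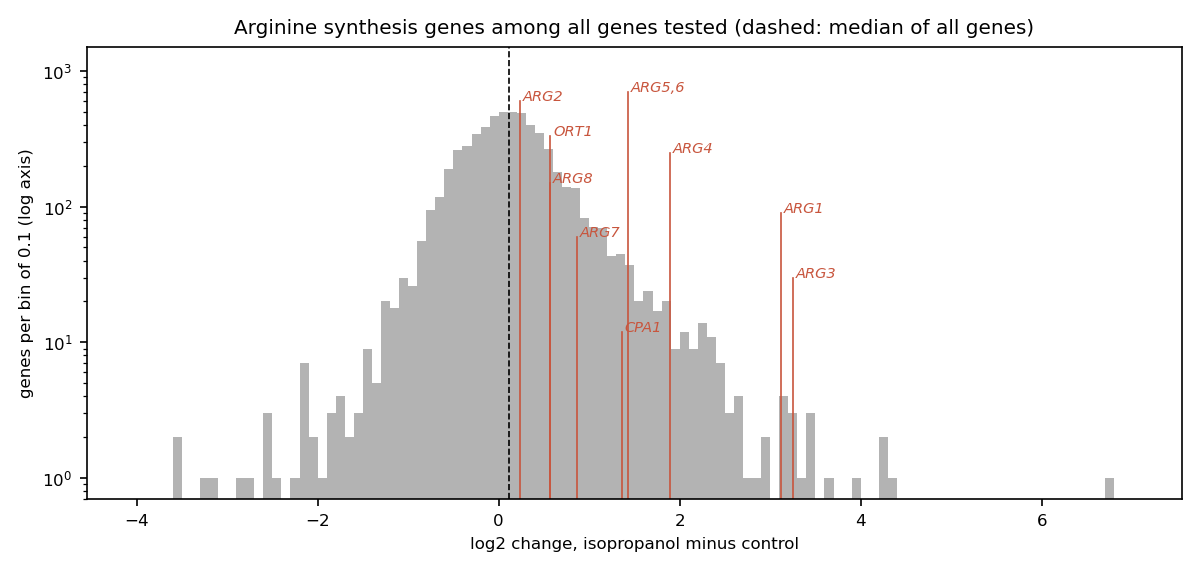
The histogram counts the 5816 tested genes by log2 change, isopropanol minus control, in bins of 0.1 on a log axis, with the 9 genes marked and the median of all genes (0.11) dashed. ARG1 and ARG3 stand in the far upper tail at 3.12 and 3.26, while ARG2 at 0.24 lies near the median.

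Whether neighbouring steps changed by the same amount was asked of the ratio of the 2 genes on each array, which does not depend on a factor common to the array. For 8 pairs these ratios were compared between groups by a two-sided exact permutation test (4 against 4, smallest possible p 0.0286) with Benjamini-Hochberg adjustment over the 9 pairs that were tested. In 7 pairs the change was unequal, each at an exact p of 0.0286 (adjusted p = 0.0367). From ARG2 to ARG5,6 the change was larger by 1.20 (log2, SE 0.08), and from ARG5,6 to ARG8 it was smaller again (-0.87, SE 0.06). ARG7 rose more than ARG8, by 0.30 (SE 0.04), although with normexp on an array-wide background this difference was 0.17 and missed the threshold (adjusted p = 0.0964). Without the offset it shrank to 0.065 (SE 0.07, adjusted p = 0.4). ORT1 rose less than ARG7 (-0.29, SE 0.08), a difference that missed the threshold when any array other than isopropanol replicate 4 was left out (adjusted p of 0.0643 to 0.0735).

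Of the 8 pairs the step from ORT1 to ARG3, into the cytosolic part, was the largest on this scale. ARG3 rose by 2.69 more than ORT1 (log2, SE 0.10) and by 1.89 more than CPA1 (SE 0.13). With the normexp correction on local backgrounds these were 0.79 (adjusted p = 0.184) and 0.11 (adjusted p = 0.83). That correction read ARG3 far above the subtracted signal on control replicate 2, as given above. With an array-wide background the differences were 1.35 and 0.62, or 2.28 and 1.47 without the offset, and each of these was called. The difference between ARG1 and ARG3 was -0.13 (SE 0.08, exact permutation p = 0.171) and did not pass, but it was called at -0.19 without control replicate 1. With the opposite sign it was called at 0.32 with quantile normalization (adjusted p = 0.0321), at 1.77 with normexp (adjusted p = 0.0429) and at 1.20 with an array-wide background (0.31 without the offset, adjusted p = 0.0367 for both). Which of ARG1 and ARG3 rose more therefore depended on the processing. ARG4 rose less than ARG1 (-1.23, SE 0.05).

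**Figure D3:**
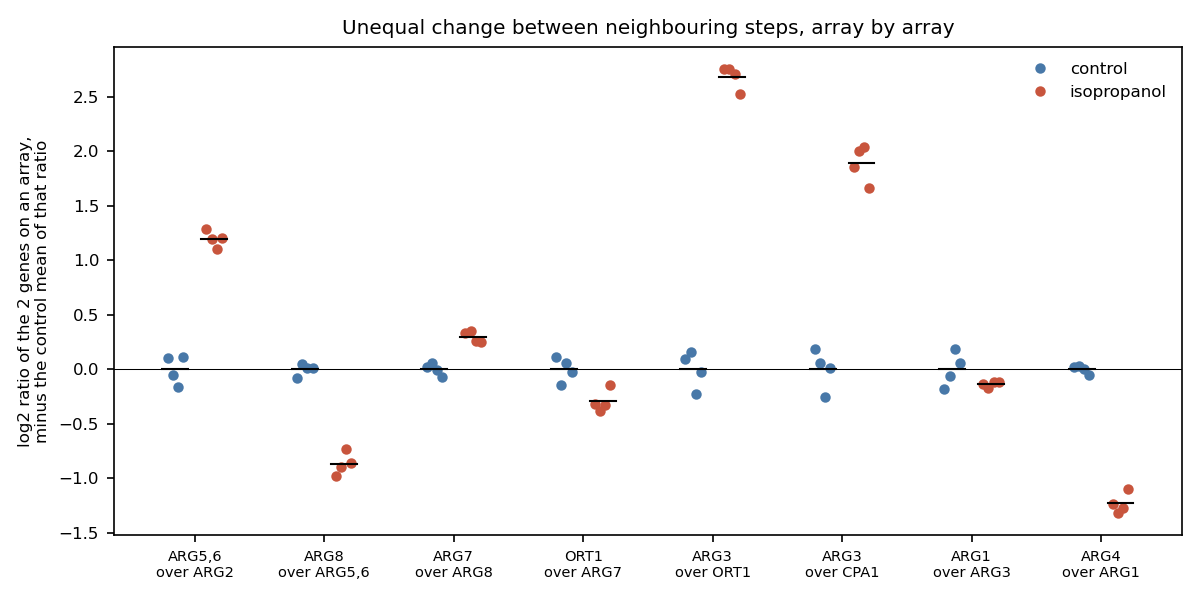
For each pair, the log2 ratio of the later gene over the earlier is plotted on each of the 4 control and 4 isopropanol arrays after taking off the control mean, with bars at group means. The isopropanol points lie outside the range of the controls in 7 pairs, barely so for ORT1 over ARG7 on isopropanol replicate 4, and by the most for ARG3 over ORT1 (2.69), but overlap it for ARG1 over ARG3 (-0.13).

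**Figure D4:**
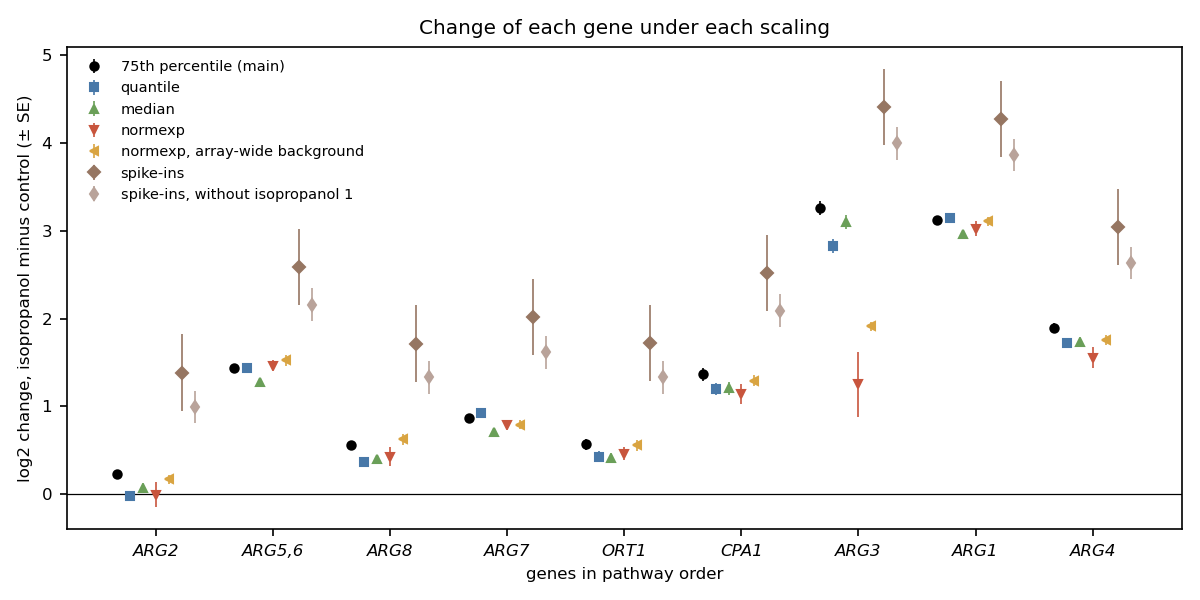
The log2 change of each gene, with its SE, is plotted under 7 ways of scaling or background correction. ARG2 moves from -0.02 with quantile normalization to 1.39 with spike-ins, ARG3 from 1.25 with normexp to 4.41 with spike-ins, and ARG1 stays between 2.96 and 4.27.

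The genes around the pathway moved in mixed directions. Among 6 regulators 3 rose and none fell (median 0.30, log2), against 48.1% and 29.7% of all genes, a share near the background. With quantile normalization 5 were higher and 1 lower, beside 2074 and 2225 of all 5816 genes. With median centring the counts were 3 and 1, beside 2016 and 2441 of all genes. With spike-in scaling they were 6 and 0, beside 4548 and 19. ARG80, a DNA-binding part of the ArgR/Mcm1 complex, rose by 0.57 (SE 0.05, limma adjusted p = 1.59e-06), and ARG82, an inositol polyphosphate kinase that the complex needs, by 0.55 (SE 0.07, adjusted p = 2.64e-05), a call that was lost with normexp (0.25, adjusted p = 0.184). GCN2, the kinase that senses uncharged tRNA and raises the translation of GCN4, rose by 0.48 (SE 0.04, adjusted p = 1.61e-06). ARG81, the arginine sensor of the complex, did not pass (-0.09, adjusted p = 0.0671). It was called lower with quantile normalization (-0.20), with median centring (-0.25) and without isopropanol replicate 4 (-0.12, adjusted p = 0.0172), and higher with spike-in scaling (1.06). MCM1 did not pass either (0.11, adjusted p = 0.103), but was called higher with quantile normalization (0.24, adjusted p = 0.00422) and spike-in scaling (1.26), and median centring gave -0.045. GCN4 read 3.45, 3.26, 3.09 and 3.26 on control replicates and 3.23, 3.32, 3.31 and 3.35 on isopropanol replicates. These groups overlapped and the change was 0.04 (SE 0.07, limma adjusted p = 0.628). With quantile normalization GCN4 was called higher, at 0.30 (adjusted p = 0.00174), and with spike-in scaling, at 1.19, while median centring gave -0.12 with no call. GCN4 is known to be controlled mainly at translation, which arrays do not measure.

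Of 27 genes for the synthesis of other amino acids that Gcn4 is known to control, 19 rose, 5 fell and 3 did not pass, with a median of 0.29 (log2), against 1.36 for the arginine genes and 0.11 for all genes, of which 48.1% rose and 29.7% fell. Median centring called 13 of the 27 higher and 7 lower (median 0.13), and 2016 and 2441 of all 5816 genes (median -0.05). Spike-in scaling called 24 and 0 of the 27 (median 1.44), and 4548 and 19 of all genes (median 1.26). Of the 27, the highest on the scale used were LYS1 and LYS9 of lysine synthesis and HIS4 of histidine synthesis, at 1.05, 0.96 and 0.97. Only LYS1 rose at least 2-fold, as did 5 of the 9 arginine genes. The difference between the lists was not tested.

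Of 7 genes that supply or move the nitrogen donors glutamate, glutamine and aspartate, 4 rose and 2 fell. Of all genes 48.1% rose and 29.7% fell. The list median was 0.22, turning to -0.09 with normexp and -0.02 with quantile normalization. Median centring called 2 of the 7 higher and 3 lower, beside 2016 and 2441 of all genes. Normexp on an array-wide background called 3 and 3, beside 2296 and 1751. GDH3, a glutamate dehydrogenase, rose 2.58-fold (log2 1.37, SE 0.04, limma adjusted p = 8.11e-10), and its probe may share signal with its close paralog GDH1. GLT1, glutamate synthase, fell by 0.68 (SE 0.07), and AAT2, the cytosolic aspartate aminotransferase, fell by 0.78 (SE 0.04). Spike-in scaling turned these to 0.47 and 0.37, neither of them called (adjusted p = 0.292 and 0.402).

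Among 6 transporters of arginine and other basic amino acids 2 rose and 3 fell, against 48.1% and 29.7% of all genes. Their median was -0.35, or 0.80 under spike-in scaling. RTC2, a vacuolar membrane transporter, read -3.27, -3.37, -3.39 and -3.34 on control replicates and -1.17, -1.07, -1.15 and -1.35 on isopropanol replicates. The groups were far apart, and RTC2 rose 4.46-fold (log2 2.16, SE 0.06, limma adjusted p = 8.29e-10). Its relatives YPQ1 and YPQ2 fell, by 0.66 and 0.93, and GAP1, the general amino acid permease, by 0.59. Spike-in scaling gave 0.49, 0.22 and 0.56 upward, none of them called (adjusted p of 0.21 to 0.621). The plasma membrane arginine permease CAN1 did not pass (-0.11, adjusted p = 0.154). It was called lower with median centring (-0.27, adjusted p = 0.0037) and without isopropanol replicate 4 (-0.16, adjusted p = 0.0435), and higher with spike-in scaling (1.04). The related permease ALP1 was dim and higher by 1.23 (SE 0.09), a sign that turned to -0.34 with normexp on local backgrounds but held on an array-wide one.

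Of 5 genes of arginine breakdown 3 fell and 2 rose, against 29.7% and 48.1% of all genes. Their median was -0.17, or 0.98 under spike-in scaling. CAR1, arginase, read 1.02, 1.13, 1.14 and 1.08 on control replicates and 0.85, 0.99, 0.94 and 0.93 on isopropanol replicates. The groups did not overlap, and CAR1 fell by 0.17 (log2, SE 0.05, limma adjusted p = 0.00648), or 1.12-fold. This call was lost with quantile normalization (-0.048, adjusted p = 0.335), with normexp (-0.15, adjusted p = 0.11) and with both control replicate 3 and isopropanol replicate 1 left out (-0.13, adjusted p = 0.0542). CAR2, ornithine transaminase, fell by 0.62 (SE 0.06, adjusted p = 4.86e-06) and PRO3, which makes proline, by 0.82 (SE 0.06, adjusted p = 3.87e-07). Under spike-in scaling the changes of CAR1, CAR2 and PRO3 turned to 0.98, 0.54 and 0.33, of which only that of CAR1 was called (adjusted p = 0.0319). PUT1 and PUT2, the mitochondrial proline oxidation genes, were higher by 0.84 and 0.35. PUT1 was dim and turned to -0.41 with normexp on local backgrounds, though not on an array-wide one.

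The products that share a precursor with arginine gave further mixed counts, where 48.1% of all genes rose and 29.7% fell. None of these short lists was tested against all genes. Of the proline synthesis genes, which also start from glutamate, PRO1 was higher by 0.12 (SE 0.04, limma adjusted p = 0.0304), with overlapping groups, and turned to -0.040 with median centring. Its call was lost without control replicate 1, 2 or 4 or isopropanol replicate 1 or 3 (adjusted p of 0.0692 to 0.0755), with normexp (adjusted p = 0.124) and with quantile normalization (adjusted p = 0.417). PRO2 did not pass (-0.01, adjusted p = 0.840), but was called higher with quantile normalization (0.15) and spike-in scaling (1.14) and lower with median centring (-0.17). Of 5 polyamine genes, which use ornithine, 2 fell and none rose (median -0.19, or 0.96 under spike-in scaling). SPE3, spermidine synthase, fell by 1.05 (SE 0.04) and SPE4, spermine synthase, by 0.51 (SE 0.04), while spike-in scaling gave 0.10 and 0.64 with no call. SPE1 (-0.05), SPE2 (-0.19) and OAZ1 (-0.09) did not pass, and each was called higher under spike-in scaling (1.10, 0.96 and 1.06). SPE1 and SPE2 were called lower with median centring (-0.21 and -0.35), which made 4 of the 5 lower, beside 2441 of all 5816 genes. SPE2 was also called lower with quantile normalization (-0.33) and without isopropanol replicate 1 (-0.25, adjusted p = 0.0335). Of 5 pyrimidine genes, which use carbamoyl phosphate from a separate synthase, 3 fell and 1 rose (median -0.39, or 0.76 under spike-in scaling). URA2, which encodes that synthase, did not pass (0.12, adjusted p = 0.112). It was called higher with quantile normalization (0.31, adjusted p = 0.00124), normexp (0.27, adjusted p = 0.0498), an array-wide background (0.23), spike-in scaling (1.28) and without control replicate 2 (0.17, adjusted p = 0.0306), while median centring gave -0.034. URA1, URA4 and URA5 fell by 0.84, 0.47 and 0.39, with signs that turned under spike-in scaling, though without a call. The call of URA5 was lost with normexp (adjusted p = 0.0901). URA10, a paralog of URA5, rose by 1.44 (SE 0.05), or 0.62 with normexp (adjusted p = 0.082).

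**Figure D5:**
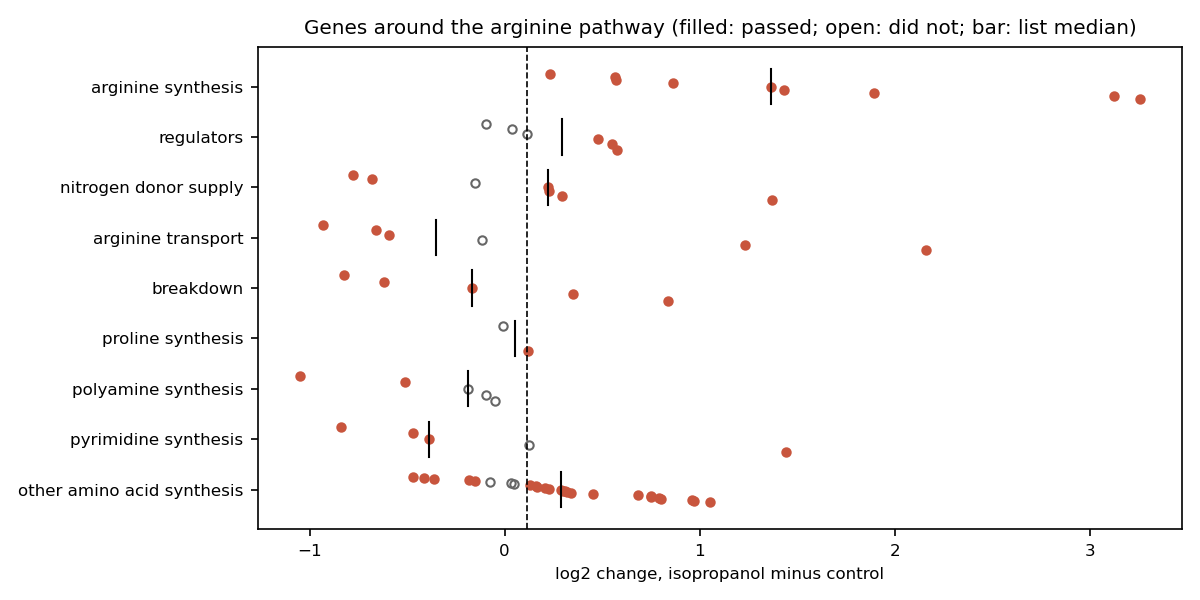
Each point is a gene of the named list, placed by its log2 change, isopropanol minus control, filled where it passed the limma test and open where it did not, with a bar at the list median and the median of all genes (0.11) dashed. The arginine synthesis genes lie from 0.24 to 3.26, with all points filled and a median of 1.36, and the median of the breakdown genes is -0.17.

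Outside these lists, the genes nearest in profile over the 8 arrays to the mean of the 9 arginine genes (Euclidean distance after taking off each gene's own mean) were MRX19, PDR5, TPO1, YGR039W and YSW1, at distances of 0.131 to 0.157 (log2). PDR5 and TPO1 encode plasma membrane transporters, the former a multidrug pump and the latter a polyamine exporter. The changes of these nearest genes, from 1.42 to 1.50, were near the mean change of the arginine genes (1.48). That of YGR039W, a dim probe, turned to -0.57 with normexp on local backgrounds, though not on an array-wide one. With only 2 groups of arrays this measure mainly finds genes with a change of that size.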

How the data were processed

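RNA of 4 control and 4 isopropanol samples, grouped and numbered by their titles, was labelled with Cyanine 3 and read on 1-colour Agilent arrays. Per the file headers, the deposited processed, median and background signals are intensity values from Feature Extraction 9.5.3.1 (version 9 per the submitters' processing notes), without scaling between arrays. The series matrix deposited by the authors holds log2 values, which ranked probes as the scanner values did (Spearman correlation 0.999 to 1 over 6256 probes). Their column medians were -1.52 to -1.32, their scale was log2 relative to about the 75th percentile, genes were not centred and the direction was the same; further processing is not given in the sources used here. Other columns used were flags.

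Control spots and flagged spots (0 to 21 per array) were left out, log2 processed signal was taken minus the 75th percentile of its array, and the 2 spots of a probe were averaged. Probes stayed in if all arrays of 1 or both groups had them well above background, and the brightest probe stood for a gene. Symbols came from the RefSeq table (R64), which matched 5765 of 6256 probes, while 491 kept the file's name. Coordinates are not printed, since the arrays use an older annotation. Differences were fitted over 5816 genes with limma 3.58.1 (R 4.3.3, lmFit and eBayes, Benjamini-Hochberg), after the script had been tested on simulated data. With 4 arrays a group, array number limits the precision.

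The members and gene lists were chosen with earlier results of these data known. Named were the 9 genes, all members of lists of 6 or fewer, the 3 largest called changes of longer lists, and the 5 nearest profiles; 1 further gene and the pair it formed among the 9 tested are not reported here. Other list members are given by counts. The files had no mean signal, so normexp (offset 50) used the median signal. Alternatives were other scalings, filters, fits and samples left out. Deviations of same-numbered arrays from their group means correlated at -0.16 to 0.04, so the replicate numbers were not taken as pairs.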

Additional observations from a re-analysis of the deposited data

Results flagged for a closer look

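In 3 of 106 groups of 4 arrays that were checked, 1 array stood away from the other 3 by more than Dixon's critical value for 4 values (the gap to the nearest array over the whole range), where chance gives about 1 in 20. ORT1, the ornithine exporter, was high on isopropanol replicate 4, at -0.84 (log2) against -1.01 to -0.99 on the other isopropanol arrays, a gap of 0.866 of the range. Its change was called with any array left out. PRO1, glutamate kinase of proline synthesis, was high on control replicate 3, at -0.46 against -0.60 to -0.57 (0.844 of the range). YGR039W was low on control replicate 3, at -6.82 against -6.71 to -6.69 (0.838 of the range), a dim probe.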

How the results depend on the processing

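All 9 arginine genes were called higher, and none lower, with any array left out, and the counts over all genes then ran from 2702 to 2794 higher and from 1655 to 1752 lower, with 6 to 7 step differences called. With the replicate number as a block (a fit for pairs, although 0 of 4 arrays correlated best with its own number) 9 arginine genes were higher and 2721 and 1676 of all genes higher and lower. PRO1 lost its call there (adjusted p = 0.0531), as it did without any of 5 single arrays. All genes called higher numbered 2796 as reported, 1061 with normexp, 1069 with normexp and no offset, 4548 with spike-in scaling and 4886 with it and without isopropanol replicate 1. Those called lower numbered 1729 as reported, 19 with spike-in scaling and 81 without that array. Of calls, 61.8% were higher as reported, 48.2% with quantile normalization, 45.2% with median centring, 43.2% with normexp and 99.6% with spike-ins. The median of all genes was -0.02, -0.05, -0.08 and 1.26 in these 4.

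With normexp the signs of ARG2 (-0.0041), ALP1 (-0.34), PUT1 (-0.41), MFA1 (-0.55), YGR039W (-0.57) and ARG1 against ARG3 (1.77) turned, as did the medians of donor supply (-0.085) and haploid genes (-0.55). On 2 control arrays a few spots had a local background far above their signal, the lowest difference being -10894 units on replicate 2, and normexp raised the median signal by 213 units there and by 50.2 on replicate 3, against 5.99 to 12.3 elsewhere. The further normexp settings, the joint removal of control replicate 3 and isopropanol replicate 1, and quantile normalization of the step differences were chosen after seeing the data. With no offset the turned values were ALP1 -0.081, PUT1 -0.22, MFA1 -0.33, YGR039W -0.35, ARG1 against ARG3 1.29, donor supply -0.049 and haploid genes -0.33. With an array-wide background ARG1 against ARG3 turned (1.20, and 0.31 with no offset), as did the uncalled changes of ARG81 (0.048), SPE1 (0.12) and SPE2 (0.0029). ALP1, PUT1, MFA1 and YGR039W did not turn there. Quantile normalization turned ARG2 (-0.024), PRO2 (0.15), ARG1 against ARG3 (0.32) and donor supply (-0.023). Median centring turned PRO1 (-0.040), the proline median (-0.10) and the uncalled changes of MCM1 (-0.045), GCN4 (-0.12) and URA2 (-0.034). The other uncalled changes near 0 whose sign turned are not listed.

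Spike-in scaling turned ARG81 1.06, AAT2 0.37, GLT1 0.47, CAN1 1.04, GAP1 0.56, YPQ1 0.49, YPQ2 0.22, CAR1 0.98, CAR2 0.54, PRO3 0.33, PRO2 1.14, SPE1 1.10, SPE2 0.96, SPE3 0.10, SPE4 0.64, OAZ1 1.06, URA1 0.31, URA4 0.68, URA5 0.76 and the medians of transport 0.80, breakdown 0.98, polyamine 0.96 and pyrimidine genes 0.76. Without isopropanol replicate 1 these were ARG81 0.67, GLT1 0.13, CAN1 0.62, GAP1 0.17, YPQ1 0.10, CAR1 0.61, CAR2 0.10, PRO2 0.74, SPE1 0.74, SPE2 0.50, SPE4 0.24, OAZ1 0.60, URA4 0.26, URA5 0.35, and 0.40, 0.61, 0.50 and 0.35 for the medians, the others keeping their sign. Among the genes turned by spike-in scaling with no array left out, only ARG81, CAN1, CAR1, PRO2, SPE1, SPE2 and OAZ1 were called. All of the turned genes had the same SE there (0.43), so these calls are not separate results for each gene. Apart from the spot backgrounds, the cause was not tested. The slide as a block could not be fitted, since each slide holds 1 group. Dim probes, with ARG3 on control arrays the dimmest of the 9, are limited by signal over background.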
